A study of Mus musculus with 234 samples.

Results

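The cells described here were the bright cardiomyocytes (CMs) of homozygous CAG-BAG3P209L mice, ordered by how much transgene RNA each of them held. The members were the wells labelled homo_bright in which 1000 or more genes were detected, 76 of 80 such wells among the 234 single cells of the series, with 20 from Mouse_25 and 56 from Mouse_116. For each cell the counts of the features hBAG (human BAG3) and BAG-eGFP (its fused green fluorescent protein) were added and divided by all counts of the cell to give a transgene level in counts per 1000000 counts of the cell (CPM), and within each mouse the cells were ranked by this level and divided into 3 groups of near equal size, the bottom, middle and top tercile. The terciles held 6, 8 and 6 cells in Mouse_25 and 18, 20 and 18 cells in Mouse_116. The top tercile was set against the bottom tercile over the counts summed per tercile and mouse, and the number of replicates was therefore 2 mice.

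The cells came from a study of mice that carry human BAG3 with a mutation known from myofibrillar myopathy and restrictive cardiomyopathy. In the line labelled PGKcre:BAG3P209L_homo, a ubiquitous CAG promoter in the Rosa26 locus drives the mutant BAG3 joined to eGFP once PGK-Cre has removed a stop cassette, so all cell types of the body can carry the transgene, and the line goes back to 1 embryonic stem cell clone. By the study's staining, however, expression in the heart was found in CMs alone, and across tissues mainly in striated muscle. Homozygous animals had the construct on both alleles, and their background was mixed. By the study's account, the stop cassette was removed from 1 or both of these alleles. The labels, in contrast, give C57BL/6 for the control siblings, Mouse_26 and Mouse_73, and their titles read wt. The study defines control siblings more widely, as wild-type, PGK-Cre only or unrecombined construct only. Hearts of 2-week-old mice were perfused with enzyme on a Langendorff system, after which the atria were taken off and the ventricles dissociated, single CMs were picked by hand as bright or dim, and full-length cDNA was made by SMART-seq2, without molecular identifiers.

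BAG3 is a co-chaperone that joins Hsp70 chaperones to small heat shock proteins and hands damaged proteins of the contractile apparatus, filamin C above all, to autophagy. In muscle this route is called chaperone-assisted selective autophagy (CASA). It works at the Z-disc, the anchor of the thin filaments, and mutant BAG3 is known to form aggregates there together with its clients.

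Of the 76 wells, 2 went against the label CM, and both were from Mouse_25. Well C8, in the top tercile, held 205 CPM of 8 CM markers summed (Tnnt2, Tnni3, Myh6, Actn2, Ryr2, Actc1, Ttn and Mybpc3) and 52217 CPM of 8 fibroblast markers, among them 19050.3 CPM of Dcn and 11590.3 CPM of Col3a1. Well E1, in the bottom tercile, held 1907 CPM of CM markers, 1117 detected genes, 48.4% mitochondrially encoded counts and a single transgene count. The other 74 wells held between 40415 and 112949 CPM of CM markers. Well C8 carried 737 counts of hBAG and 121 of BAG-eGFP, so that its place in the top tercile did not rest on a few reads. It did rest on hBAG, at 867 CPM the highest of its tercile. Its BAG-eGFP, at 142 CPM, was the lowest there and under every middle cell of Mouse_25 (149 CPM or more). These were the only 2 of the 219 cells of the series with 1000 or more genes that fell under 10000 CPM of CM markers, and results that could rest on them are given also without them, the cells being ranked again after their removal, a step added after the data had been seen.

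**Figure D1:**
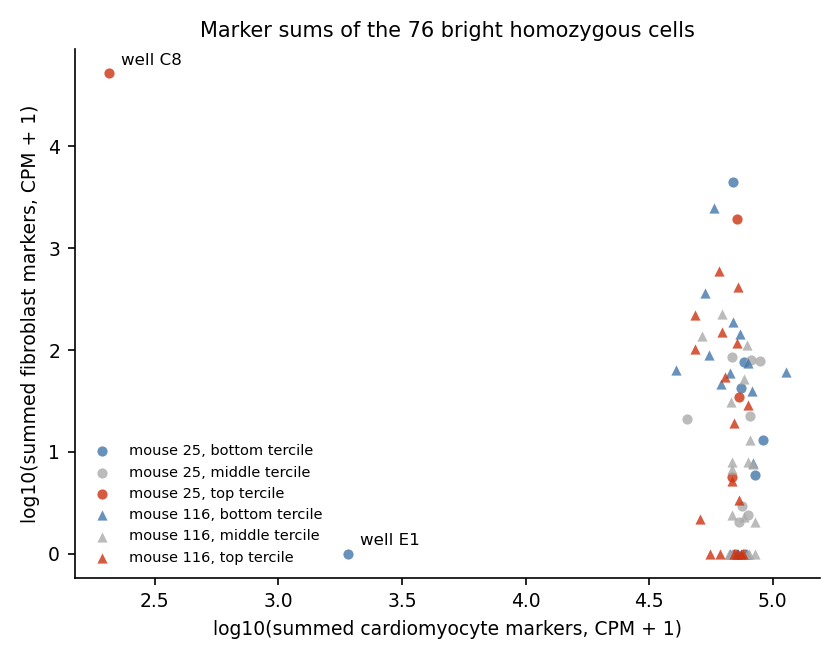
Summed CPM of 8 CM markers (x axis) and 8 fibroblast markers (y axis), both as log10 of CPM + 1, in the 76 bright homozygous cells; circles are Mouse_25, triangles Mouse_116, and colour gives the tercile by transgene CPM. Well C8 lies at 205 and 52217 CPM, well E1 at 1907 and 0 CPM, and the other 74 cells lie at 40415 CPM of CM markers or more.

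Depth was alike across the terciles of Mouse_116 and lowest in the bottom tercile of Mouse_25. The median cell held 805762, 979836 and 1007264 counts in the bottom, middle and top tercile of Mouse_25 and 732796, 744032 and 745526 in Mouse_116. Cells ranged from 4259 to 1392253 counts, and 3 wells of Mouse_116, of which 2 were in the bottom and 1 in the top tercile, held under 10000. The number of detected genes had a median of 5598, 6812 and 6759.5 in Mouse_25 and of 5324, 5440.5 and 5812 in Mouse_116, lowest in the bottom tercile of both mice. The part of these differences in depth in the results below was not tested beyond the thinning of each cell to an equal number of counts.

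The transgene level is what chose the cells, and its values are given as a description. In Mouse_25 the bottom tercile ran from 4.32 to 288 CPM with a median of 138, the middle tercile had a median of 389.8, and the top tercile ran from 717 to 1071 CPM with a median of 925. In Mouse_116 the bottom tercile ran from 92.3 to 349 CPM with a median of 239, the middle tercile had a median of 438, and the top tercile ran from 543 to 1234 CPM with a median of 644. The division was narrow at its edges in Mouse_116, where the highest bottom cell held 349 and the lowest middle cell 355 CPM, and the highest middle cell 542 and the lowest top cell 543 CPM. In Mouse_25 these pairs were 288 and 324, and 628 and 717 CPM. Summed over cells, transgene RNA was 5.59-fold higher in the top than in the bottom tercile of Mouse_25, or 4.42-fold without the 2 wells, and 2.98-fold higher in Mouse_116.

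Both transgene features went up with the ranking, but not in step. Levels of hBAG normalized over the 6 sums were 71.2, 209.7 and 588 CPM in the bottom, middle and top tercile of Mouse_25 and 91.5, 244 and 332 in Mouse_116, while BAG-eGFP stood at 103, 229 and 312 and at 133, 207 and 309. The hBAG share of all transgene counts was 40.8%, 47.8% and 65.3% in Mouse_25 and 40.7%, 54.2% and 51.8% in Mouse_116, lowest in the bottom tercile of each, and 41.1%, 47.6% and 60.3% in Mouse_25 without the 2 wells. Across single cells the Spearman correlation of hBAG with BAG-eGFP was 0.74 over 20 cells of Mouse_25 and 0.49 over 56 cells of Mouse_116, both features being divided by the same cell total; over the 18 cells of Mouse_25 without the 2 wells it was 0.86. Counts of hBAG were 0.324, 1.03 and 3.15 times those of the endogenous mouse Bag3 in the bottom, middle and top tercile of Mouse_25 and 0.559, 1.14 and 1.77 times in Mouse_116. In Mouse_25 without the 2 wells they were 0.399, 0.986 and 2.48 times. These ratios compare reads and not transcripts, since neither length nor the way reads are split between the human and the mouse gene was corrected for.

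**Figure D2:**
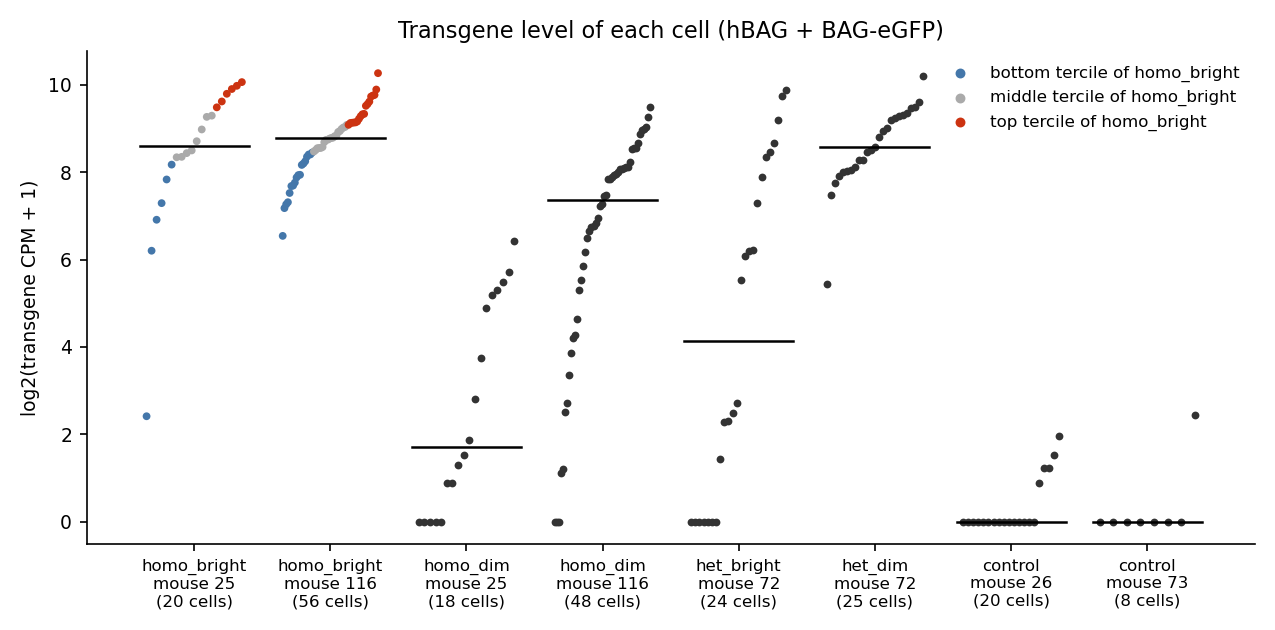
Transgene level of each cell with 1000 or more detected genes, as log2 of (hBAG + BAG-eGFP) CPM + 1, by group and mouse; lines are medians and colours the terciles of the bright homozygous cells. The bright cells of Mouse_25 have a median of 389.8 CPM against 2.28 in its dim cells, those of Mouse_116 have 438 against 165 CPM, and control cells lie at 4.42 CPM or less.

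Bright and dim cells overlapped in transgene RNA in both mice. In Mouse_25, 2 of 20 bright cells, both in the bottom tercile, lay at or under the highest dim cell (84.5 CPM), and 8 of 18 dim cells lay at or above the lowest bright one, which was well E1. In Mouse_116, 48 of 56 bright cells, including every cell of the bottom tercile, lay at or under the highest dim cell (724 CPM), and 31 of 48 dim cells lay at or above the lowest bright one.

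No gene passed the threshold between the top and the bottom tercile: edgeR's quasi-likelihood test with the mouse as a block called 0 of 11932 genes at an adjusted p of 0.05 (0%), the smallest adjusted p being 0.963. An unadjusted p under 0.05 was found for 402 (3.37%), with 251 higher (2.1%) and 151 lower (1.27%) in the top tercile. DESeq2 called 67 genes (0.562%), 56 higher and 11 lower, and gave 1097 an unadjusted p under 0.05 (9.19%), and a linear trend over the 3 terciles in edgeR called 1. Without the 2 wells edgeR called 0 of 11847 genes, with 443 at an unadjusted p under 0.05 (3.74%), 244 of them higher (2.06%) and 199 lower (1.68%). With both mice counted separately, 3285 genes were higher in the top tercile of each (27.5%) and 2475 lower (20.7%). All fold changes below are therefore given with their error as differences that did not pass, on the log2 scale and over a median of 0.11 for all genes tested (0.06 without the 2 wells). Many genes below were named for a small p, which favours tercile sums that do not overlap. Such separations are given as description and not as further evidence.

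Many of these differences came from single wells. Of the 251 genes higher in the top tercile at an unadjusted p under 0.05, 107 (42.6%) had over 50% of their top-tercile counts of Mouse_25 in well C8, as had 35 of the 56 genes that DESeq2 called higher, against 943 of all genes tested (7.9%). Of the 12 genes with the smallest p among those higher in both mice, 10 were of this kind, namely Nfkbiz, Txndc5, Il1rl2, Cog3, C1qtnf1, Parp16, Gpx3, Champ1, Cyp2d22 and Gm14005. Nfkbiz, an inhibitor-like regulator of NF-κB, was the single gene called by the linear trend; its normalized CPM were 0, 0.753 and 109 in Mouse_25 and 0, 0.0667 and 11.5 in Mouse_116, and well C8 held 99.4% of its counts in the top tercile of Mouse_25. Il1rl2, a receptor of the interleukin-1 family, had 1 cell with a count there and 2 in Mouse_116. The protein disulfide isomerase gene Txndc5 differed by 2.67 ± 0.51 with well C8 and by 0.85 without the 2 wells, and its levels in Mouse_25 were then 19.6, 12.3 and 8.0 CPM in the bottom, middle and top tercile.

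The remaining 2 of the 12 were Rpap2, a phosphatase of RNA polymerase II, and Dpysl3, a cytoskeletal regulator. Dpysl3 had 86.3, 133 and 189.8 normalized CPM in Mouse_25 and 89.9, 166 and 219 in Mouse_116 in the bottom, middle and top tercile, a difference of 1.21 ± 0.25 (edgeR p = 0.0027; 1.17 without the 2 wells), and the 2 groups of sums did not overlap. In Mouse_25, however, 1 cell (well B1) held 73.8% of its top-tercile counts, and without it and the 2 wells the difference was 0.75 (p = 0.056). Rpap2 was counted in 4 of 6 and 4 of 18 cells of the top terciles, and 1 cell held 76.6% of these counts in Mouse_25 and 51.9% in Mouse_116. All 12 genes thus had over 50% of their top-tercile counts of Mouse_25 in 1 cell, as had 9 in Mouse_116, against 6567 and 3907 of all 11932 genes tested. Cog3 and Gpx3 stayed higher without the 2 wells (5.54 and 1.78), but without well B1 as well Gpx3 differed by 0.18 (p = 0.88). Gpx3, a glutathione peroxidase, stood at 49.1, 37.5 and 129 CPM in Mouse_25 without the 2 wells and at 32.7, 51.1 and 152 in Mouse_116, highest in the top tercile of both.

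A further well of the top tercile of Mouse_25, B1, held the largest share of the counts of several named genes. It held 946217 counts, 10717 detected genes against 3143 to 7545 in the other 5 cells, 13.5% mitochondrially encoded counts, 71437 CPM of CM markers, 1919 CPM of fibroblast and 3069 CPM of atrial markers. This 1 well gave 96.6% of the top-tercile counts of Mouse_25 for Nppa, 91.0% for Srxn1, 87.6% for Tnni1, 77.0% for Ankrd1, 73.8% for Dpysl3, 58.8% for Flnc, 52.6% for Hspb7, 51.7% for Des and 50.4% for Csrp3. The comparison was therefore run once more without wells C8, E1 and B1, the cells being ranked again, also a step added after the data had been seen. It called 0 genes in edgeR, with 162 higher and 162 lower of 11694 at an unadjusted p under 0.05, and results that depend on well B1 are given below with that value.

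The clearest difference belonged to titin, the giant spring of the sarcomere, which was lower in the cells with most transgene. Ttn stood at 22768, 17037 and 12968 normalized CPM in Mouse_25 and 23753, 23157 and 14858 in Mouse_116 in the bottom, middle and top tercile. Both top sums lay under both bottom sums and under both middle sums. The log2 difference was -0.75 ± 0.10 (edgeR p = 0.00024, the smallest of all genes), and -0.65 without the 2 wells (p = 0.00034); without well B1 as well it was -0.57 ± 0.14 (p = 0.0052). Between cells, the lowest, median and highest Ttn CPM were 8545, 23288 and 66245 in the bottom and 3388, 17498 and 22617 in the top tercile of Mouse_116, so single cells overlapped widely. Its adjusted p was 0.963 in edgeR and ranged from 7.4e-06 (DESeq2) to 1 over 21 other settings, and its direction held in all 21 of them. The titles divide the wells of Mouse_116 between the names GL9989-2 and GL9989-3, called plates here although what they stand for is not stated, and within these Ttn differed by -0.46 and -0.90.

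Of the sarcomere genes, Ttn included, most but not all were lower in the top tercile. Of 28 listed genes 27 were tested, 19 were lower and 8 higher. Counted by mouse, 13 were lower and 6 higher in both mice, against 20.7% and 27.5% of all genes tested. Among genes with a mean of 100 normalized CPM or more these shares were 34% and 22.6%. An unadjusted p under 0.05 was found for 8 that were lower and 1 that was higher (33.3%, against 3.37% of all genes and 8.73% of those with a mean of 100 normalized CPM or more); without the 2 wells these counts were 5 and 1, and without well B1 as well 2 and 0. The list's median was -0.19 (-0.14 without the 2 wells, -0.07 without well B1 as well), and -0.42 in Mouse_25 and -0.03 in Mouse_116, where the 2 plates gave 0.08 and -0.14. Tnni3, the adult inhibitory troponin, had 10985, 10449.9 and 7945 normalized CPM in Mouse_25 and 7163, 7453 and 6314 in Mouse_116, and Mouse_25 was above Mouse_116 in each tercile. It differed by -0.32 ± 0.09 (p = 0.013), Myom1, which ties thick filaments at the M-band, by -0.50 ± 0.15 (p = 0.013), and the adult myosin heavy chain gene Myh6 by -0.32 ± 0.11 (p = 0.025). The 1 gene higher at that p was Tnni1, the fetal slow-muscle troponin, chosen here after its values were seen: its normalized CPM of 157, 71.2 and 269.9 in Mouse_25 and 262, 316 and 543 in Mouse_116 gave a difference of 0.90 ± 0.36 (p = 0.046), which turned to -0.36 ± 0.64 (p = 0.591) without well B1 and the 2 wells. Acta2, smooth muscle actin, which immature CMs also make, stood at 1072, 991 and 322 CPM in Mouse_25 and 1708, 1781 and 1246 in Mouse_116 and differed by -1.06 ± 0.31 (p = 0.014); it is also on the list of mural cell markers.

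**Figure D3:**
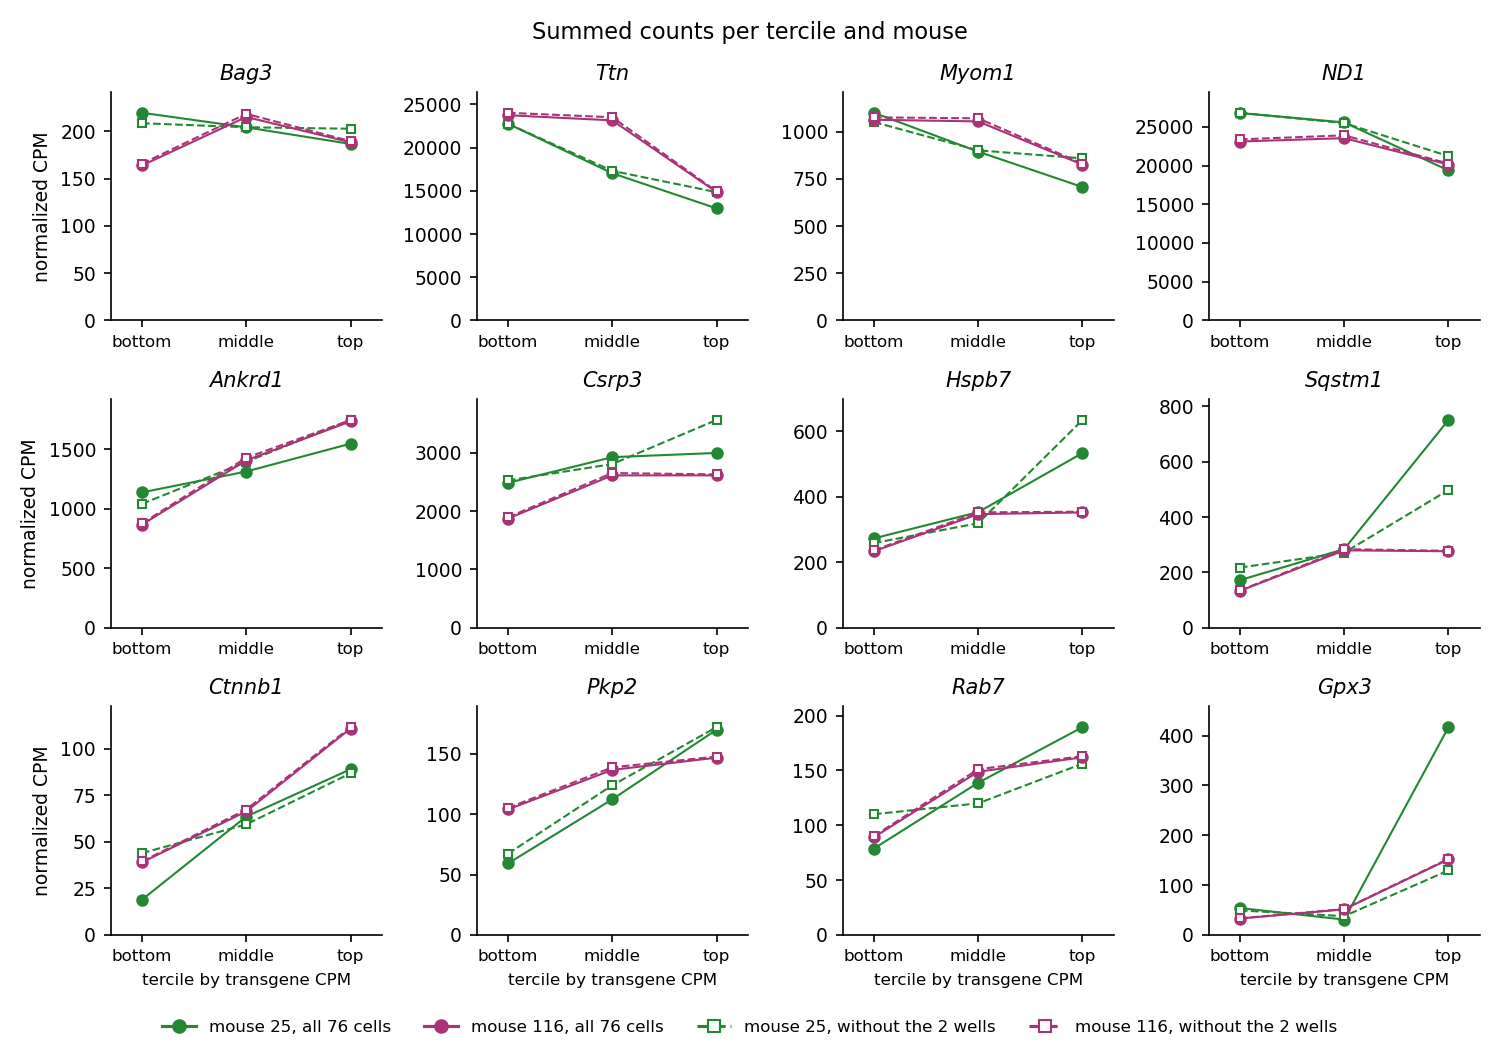
Normalized CPM of 12 genes in the bottom, middle and top tercile by transgene CPM, from counts summed over cells; filled circles and solid lines are all 76 cells, open squares and dashed lines the cells without the 2 wells low in CM markers, green Mouse_25 and purple Mouse_116. Ttn, Myom1 and ND1 end lower and Ankrd1, Csrp3, Hspb7, Sqstm1, Ctnnb1, Pkp2, Rab7 and Gpx3 end higher in the top than in the bottom tercile of both mice, while Bag3 lies between 164 and 219.5 CPM with all cells.

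Endogenous Bag3 had no common order of the terciles in the 2 mice. Its normalized CPM were 219.5, 204 and 187 in Mouse_25 and 164, 215 and 188 in Mouse_116 in the bottom, middle and top tercile, highest in the bottom tercile of one mouse and in the middle tercile of the other. The difference between top and bottom was -0.02 ± 0.24 (p = 0.927), and it took both signs, from -0.07 to 0.77 over the other settings with both mice, and with -0.23 in Mouse_25 and 0.20 in Mouse_116 alone. The other members of the BAG family, which share the domain that binds Hsp70, gave no difference at an unadjusted p under 0.05. Bag5 had 5.42, 12.2 and 17.9 CPM in Mouse_25 and 15.5, 21.1 and 28.2 in Mouse_116 and was higher in the top tercile of both mice (1.27 ± 0.79, p = 0.157). Bag1 differed by -0.44 ± 0.28 (p = 0.166), Bag2 by 0.38 ± 0.36 and Bag6 by 0.81 ± 0.57, and Bag4 was counted in 3 and 4 cells of the bottom and top tercile of Mouse_116 and in none of Mouse_25. The family's median was 0.34, and 0.16 without well B1 and the 2 wells, when Bag2 differed by -0.03.

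Among the chaperones that work with BAG3, the small heat shock proteins were split. Hspb7, a heart-enriched member that binds filamin C, had 273, 353 and 534 normalized CPM in Mouse_25 and 234, 347 and 352 in Mouse_116, lowest in the bottom tercile of both mice, and a difference of 0.79 ± 0.22 (p = 0.01; 0.97 without the 2 wells). In Mouse_25, 52.6% of its top-tercile counts came from well B1, without which and the 2 wells it differed by 0.68 ± 0.22 (p = 0.018). Within the 2 plates of Mouse_116 it differed by 0.08 and 0.91. Hspb1 stood at 278, 363 and 693 CPM in Mouse_25 and 153, 226 and 155 in Mouse_116, and its difference of 0.73 ± 0.38 (p = 0.102) was made of 1.32 in Mouse_25 and 0.02 in Mouse_116. Hspb8, the direct partner of BAG3 in CASA, had 155, 215 and 144 CPM in Mouse_25 and 211, 252 and 169.8 in Mouse_116 and a difference of -0.21 ± 0.22 (p = 0.377). Over the 7 small heat shock genes 1 was higher at an unadjusted p under 0.05 (14.3%, against 2.1% of all genes), and the median was -0.05. Of 24 tested genes of the Hsp70 and Hsp90 systems none reached that p. The 3 with the smallest p were the co-chaperones Dnaja2 (-0.43 ± 0.23) and Dnajb2 (-0.92 ± 0.57) and the endoplasmic reticulum chaperone gene Hspa5 (0.52 ± 0.33), and Hspa8, the constitutive Hsp70 that BAG3 binds, differed by 0.12 ± 0.15 (p = 0.453). The median of this list was 0.22, and 0.05 without well B1 and the 2 wells.

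Of 29 genes of autophagy and CASA tested, 17 were higher and 6 lower in the top tercile of both mice, against 27.5% and 20.7% of all genes, and 12 and 6 without the 2 wells. At an unadjusted p under 0.05, 4 were higher and 0 lower, which is 13.8% of the list against 3.37% of all genes and 8.73% of those with a mean of 100 normalized CPM or more. Without the 2 wells the counts were 4 and 0, and without well B1 as well 1 and 1. The median was 0.30 with all wells and 0.12 without the 2 wells. Sqstm1, which encodes the autophagy receptor p62, had 172, 284 and 751 normalized CPM in Mouse_25 and 133, 279.5 and 276 in Mouse_116 in the bottom, middle and top tercile. Both bottom sums lay under all middle and top sums. Its difference was 1.65 ± 0.36 (p = 0.0036) and 1.13 (p = 0.0027) without the 2 wells, when its levels in Mouse_25 were 217, 271 and 498 CPM. Well C8 held 37.2% of the Sqstm1 counts of the top tercile of Mouse_25 and well B1 43.8%, and without these and well E1 the gene differed by 0.72 ± 0.24 (p = 0.02). Between cells of Mouse_116 the lowest, median and highest Sqstm1 CPM were 3.85, 145 and 397 in the bottom and 0, 170.3 and 1112 in the top tercile, so the medians lay closer together than the sums.

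The protease gene Ctsl differed by 1.58 ± 0.44 (p = 0.011) with all wells and by 0.12 without the 2 wells, and well C8 held 87.2% of its counts in the top tercile of Mouse_25. Des, the intermediate filament of muscle, stood at 1415, 1697 and 2129.6 CPM in Mouse_25 and 921, 1177 and 1073 in Mouse_116 and differed by 0.41 ± 0.15 (p = 0.035), and by 0.27 ± 0.15 (p = 0.113) without well B1 and the 2 wells. Flnc, filamin C, and Map1lc3b, an LC3 gene, both chosen after their values were seen, differed by 0.61 ± 0.34 (p = 0.117) and 0.31 ± 0.24 (p = 0.249). Of 31 proteasome subunits 2 were higher and 1 lower at an unadjusted p under 0.05, namely Psmd6 (1.28 ± 0.38), Psmc3 (0.50 ± 0.20) and Psmc2 (-0.69 ± 0.27). This is 9.68% of the list, against 3.37% of all genes and 8.73% of those with a mean of 100 normalized CPM or more, and the median was 0.15. With the 2 wells removed, 3 were higher and 0 lower, and Psmd6 differed by 0.65 (p = 0.034) and Psmc2 by -0.50 (p = 0.055).

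Of 23 listed genes of the Z-disc and of the response to stretch 22 were tested. Of these 3 were higher and 1 lower at an unadjusted p under 0.05 (4 and 1 without the 2 wells, 0 and 0 without well B1 as well). The first counts are 18.2% of the list, against 3.37% of all genes and 8.73% of those with a mean of 100 normalized CPM or more. In addition, 10 were higher and 1 lower in both mice, against 27.5% and 20.7% of all genes. The median was 0.48 (0.43 without the 2 wells, 0.15 without well B1 as well), and the 2 plates of Mouse_116 gave 0.01 and 0.38. Ankrd1, a stretch-induced titin-binding protein of the nucleus and the I-band, had 1138, 1314 and 1548 normalized CPM in Mouse_25 and 867, 1408 and 1736 in Mouse_116 in the bottom, middle and top tercile. Each sum was above the one before in both mice, but the gene did not pass the test: the difference was 0.72 ± 0.17 (p = 0.0055), 0.87 (p = 0.00018) without the 2 wells and 0.22 ± 0.35 (p = 0.551) without well B1 as well.

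The single cells behind Ankrd1 differed between the mice. In Mouse_116 the lowest, median and highest CPM were 24.7, 444 and 5243 in the bottom tercile and 209, 1102 and 7670.3 in the top tercile. In Mouse_25 they were 8.65, 579.6 and 3268 against 3.53, 518 and 7676, and well B1 held 77.0% of the top-tercile counts. With all wells the median cell of Mouse_25 was thus not higher in the top tercile. Without the 2 wells low in CM markers it was higher. The middle 2 of 6 cells then held 426 and 733 CPM in the bottom and 536 and 891 in the top tercile. The Spearman correlation of Ankrd1 with transgene CPM was 0.02 over the 20 cells of Mouse_25 and 0.23 over the 56 cells of Mouse_116.

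Csrp3, the muscle LIM protein of the Z-disc, stood at 2487, 2928 and 3001 normalized CPM in Mouse_25 and 1873, 2615 and 2616 in Mouse_116, lowest in the bottom tercile of both mice, and differed by 0.37 ± 0.11 (p = 0.015; 0.49 without the 2 wells and 0.28 ± 0.15, p = 0.095, without well B1 as well). In Mouse_25, where well B1 held 50.4% of the top-tercile counts, the median cell had 2427 CPM in the bottom and 2244 in the top tercile, against 1957 and 2358 in Mouse_116. Without the 2 wells the lower top median of Mouse_25 was not seen. The middle 2 of 6 cells then held 2408 and 2447 CPM in the bottom and 2360 and 2521 in the top tercile. Fhl2, a LIM protein that binds titin, was lower in the top tercile, by -0.57 ± 0.23 (edgeR p = 0.045). Of the fetal and hypertrophic program, 0 of 13 genes were higher and 1 lower at an unadjusted p under 0.05 (7.69%, against 3.37% of all genes and 8.73% of those with a mean of 100 normalized CPM or more), with a median of -0.04 that changed sign between settings (from -0.20 to 0.20). Without the 2 wells 2 were higher and 0 lower at that p, which 3.74% of all genes then had, and the median was 0.07. The natriuretic peptide genes Nppb and Nppa differed by 0.49 ± 0.21 (p = 0.063) and 0.87 ± 0.48 (p = 0.117). After removal of the 2 wells they differed by 0.69 (p = 0.0073) and 1.43 (p = 0.03). Without well B1 as well, which held 96.6% of the Nppa counts of the top tercile of Mouse_25, they differed by 0.59 ± 0.22 (p = 0.032) and 0.91 ± 0.37 (p = 0.042).

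Of 18 cell junction genes tested 3 were higher and 0 lower at an unadjusted p under 0.05 (3 and 0 without the 2 wells). The share of 16.7% stands beside 2.1% of all genes that were higher at that p and 8.73% in either direction of the genes with a mean of 100 normalized CPM or more. In both mice 7 were higher and 2 lower (8 and 4 without the wells), against 27.5% and 20.7% of all genes. The median was 0.20 (0.35 without the wells), with 0.60 and 0.04 in the 2 plates of Mouse_116. Ctnnb1, which encodes β-catenin of the adherens junction and of Wnt signalling, had 18.9, 63.5 and 88.9 normalized CPM in Mouse_25 and 38.9, 66.3 and 111 in Mouse_116, each step being upward in both mice. It differed by 1.84 ± 0.42 (p = 0.0043; 1.24 without the wells). Its median cell held 6.4 CPM in the bottom and 96.4 in the top tercile of Mouse_25, and 13.9 and 122 in Mouse_116, and cells without a count occurred in every one of these groups. The desmosomal genes Jup, plakoglobin, and Pkp2, plakophilin, differed by 0.87 ± 0.27 (p = 0.017) and 1.01 ± 0.34 (p = 0.024). Pkp2 stood at 59.2, 112 and 170.1 CPM in Mouse_25 and 104, 137 and 147 in Mouse_116, again lowest in both bottom terciles.

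Of 21 calcium handling and channel genes tested, 16 were lower, and 13 were lower and 4 higher in both mice, against 20.7% and 27.5% of all genes and 34% and 22.6% of those with a mean of 100 normalized CPM or more. At an unadjusted p under 0.05, 2 were lower and 0 higher (9.52%, against 3.37% of all genes and 8.73% of those with a mean of 100 normalized CPM or more). After removal of the 2 wells these were 2 and 1. The list had a median of -0.36 (-0.25 without the 2 wells, -0.19 without well B1 as well). Ryr2, the calcium release channel, had 1514, 1038 and 905 CPM in Mouse_25 and 1297, 1369.6 and 977 in Mouse_116 and differed by -0.58 ± 0.18 (p = 0.015). Kcnd2, a potassium channel of the transient outward current, was counted in 3 and 1 cells of the bottom and top tercile of Mouse_25 and in 6 and 1 of Mouse_116, and its difference was -6.14 ± 1.51 (p = 0.0062). Camk2d, a calcium-dependent kinase, differed by 0.44 ± 0.21.

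Of the 13 protein genes encoded by the mitochondria 10 were tested, and none passed the test. All of them had a lower level in the top tercile, 5 at an unadjusted p under 0.05 (5 without the 2 wells), against 1.27% of all genes that were lower at that p and 8.73% in either direction of those with a mean of 100 normalized CPM or more. In both mice 8 were lower, against 20.7% of all genes and 34% of those at 100 normalized CPM or more. The median was -0.61 in Mouse_25 and -0.18 in Mouse_116. Over both mice the median was -0.39 (-0.28 without the wells). Without well B1 as well, 0 had that p and the median was -0.14. ND1, a subunit of complex I, stood at 26780.5, 25567 and 19372 normalized CPM in Mouse_25 and 23100.2, 23534 and 20129 in Mouse_116 and differed by -0.33 ± 0.08 (p = 0.0054). ND4 differed by -0.46 ± 0.12 (p = 0.01) and ND6 by -0.46 ± 0.11 (p = 0.0069). The mitochondrial ribosomal RNA mt-Rnr1 had 12166, 9912 and 5716 CPM in Mouse_25 and 15665, 15654 and 12571 in Mouse_116 and a difference of -0.70 ± 0.17 (p = 0.0063), and mt-Rnr2, named after its values were seen, differed by -0.34 ± 0.10 (p = 0.011). In single cells the mitochondrially encoded share had a median of 27.2%, 24.9% and 23.0% in Mouse_25 and of 26.5%, 25.8% and 24.7% in Mouse_116. After removal of the 2 wells the medians of Mouse_25 were 26.7%, 24.5% and 25.2%, lowest in the middle tercile. This share and the genes are one measurement, and reads from nuclear copies of mitochondrial genes cannot be told apart from them.

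Of 75 nuclear genes of the respiratory chain tested, 69 were lower, 8 at an unadjusted p under 0.05 and 51 in both mice, and 0 were higher in both mice, with a median of -0.23. Without the 2 wells 4 had that p and the median was -0.14. Without well B1 as well 0 were lower and 1 was higher at that p and the median was -0.0023. Among all genes with a mean of 100 normalized CPM or more, 354 of 1042 (34%) were lower in both mice, and 236 (22.6%) higher, and 8.73% had an unadjusted p under 0.05. Cycs, cytochrome c, differed by -0.42 ± 0.13 (p = 0.018), the complex III subunit Uqcrb by -0.42 ± 0.14 (p = 0.022) and the cytochrome oxidase subunit Cox6a1 by -0.61 ± 0.20 (p = 0.023). The median turned to 0.02 in 1 of 21 other settings, the ranking by BAG-eGFP alone.

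No gene of the citrate cycle, of fatty acid oxidation or of glycolysis reached an unadjusted p of 0.05. The medians were -0.11 over 19, -0.16 over 24 and -0.04 over 21 genes. Those with the smallest p were Ogdh (-0.27 ± 0.12), Suclg1 (-0.36 ± 0.17) and Mdh1 (-0.22 ± 0.11) of the citrate cycle, Acadm (-0.32 ± 0.14), Eci1 (-0.35 ± 0.16) and the lipase gene Lpl (-0.22 ± 0.13) of fatty acid use, and Hk1 (-0.81 ± 0.40), Ldha (0.24 ± 0.14) and Eno3 (-0.19 ± 0.11) of glycolysis. Of 14 regulators of mitochondrial biogenesis, Gabpa differed by -2.06 ± 0.67 (p = 0.021), the coactivator gene Ppargc1a differed by -0.48 ± 0.23 (p = 0.077) and Nrf1 by 2.96 ± 1.71 (p = 0.133), with a median of -0.44. With well B1 and the 2 wells removed, the medians were 0.05, -0.01, 0.08 and -0.23 for the citrate cycle, fatty acid oxidation, glycolysis and mitochondrial biogenesis.

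**Figure D4:**
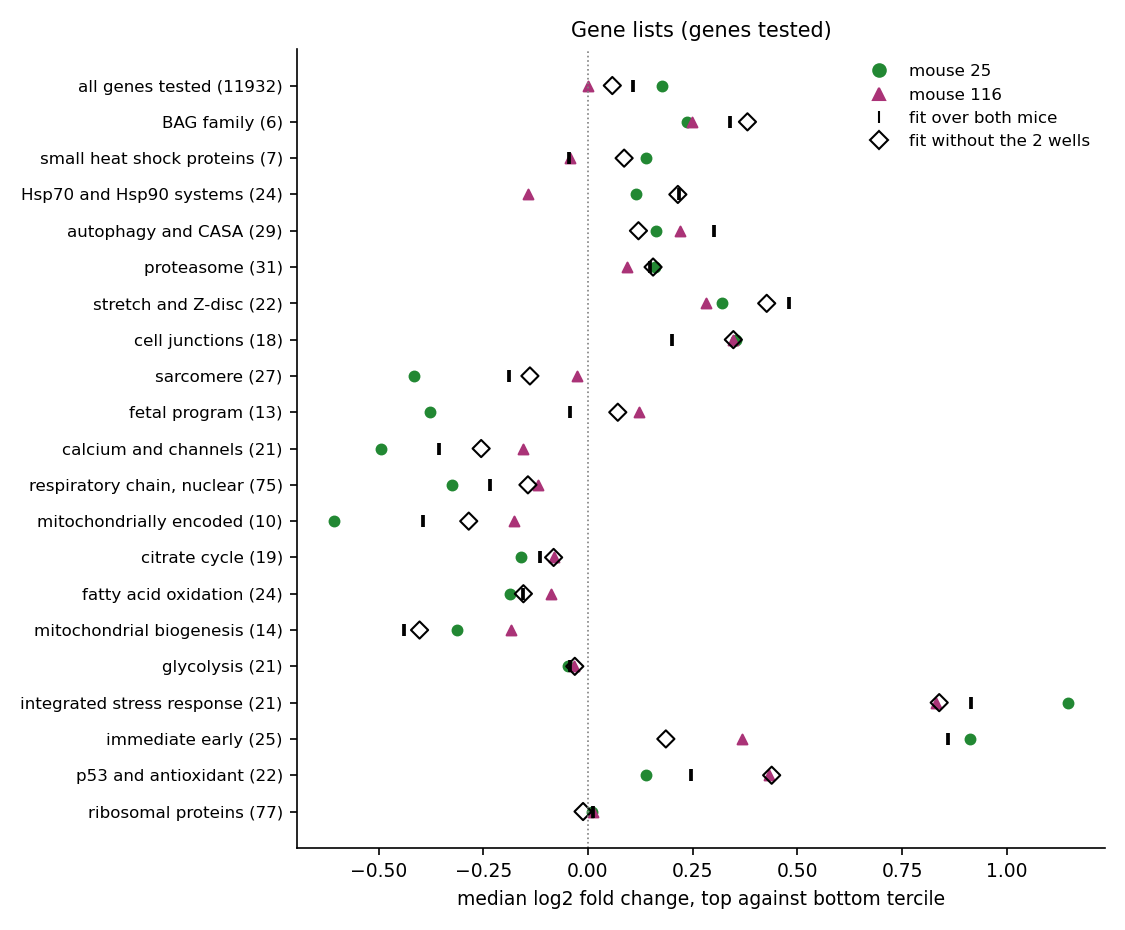
Median log2 fold change, top against bottom tercile, of each gene list (genes tested in brackets), in Mouse_25 (circles), Mouse_116 (triangles), in the fit over both mice (bars) and in the fit without the 2 wells low in CM markers (diamonds). The median of all 11932 genes is 0.11; the stretch and Z-disc list lies at 0.48, the integrated stress response at 0.91, the mitochondrially encoded genes at -0.39 and the ribosomal proteins at 0.01.

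Stress genes were sparse and uneven. Of 21 tested genes of the integrated stress response, by which cells slow translation, 2 were higher and 0 lower at an unadjusted p under 0.05 (9.52%, against 3.37% of all genes and 8.73% of those with a mean of 100 normalized CPM or more). The median was 0.91 (0.84 without the 2 wells), and without well B1 as well 1 was higher at that p and the median was 0.52. Atf4, its central transcription factor, had 39.8, 94.6 and 114 CPM in Mouse_25 and 93.8, 128 and 120.2 in Mouse_116 and differed by 0.91 ± 0.38 (p = 0.05). Gdf15, a secreted stress signal, was counted in none of the 24 bottom cells and in 1 and 3 cells of the top terciles, with 18.0 and 10.1 normalized CPM there, and Pycr1, a gene of proline synthesis, in none and in 1 cell of each top tercile. Of 25 immediate early genes none reached that p, and the median of 0.86 went to 0.19 without the 2 wells and to 0.41, with 1 gene lower at that p, without well B1 as well. Ier3 differed by 2.33 ± 1.09 (p = 0.074), Fosb was counted in 3 cells of the top terciles and in none of the bottom terciles, and Klf2 had 95.2% of its top-tercile counts of Mouse_25 in well C8. Of 22 p53 targets and antioxidant genes, 2 were higher at that p (9.09%), Gpx3 and the sulfiredoxin gene Srxn1, followed by Phlda3 (4.22 ± 1.79, p = 0.056), and Srxn1 had 91.0% and 97.3% of its top-tercile counts in 1 cell of each mouse, well B1 in Mouse_25. Without well B1 and the 2 wells 0 of these genes had that p.

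Of 18 cell cycle genes tested 15 were lower in the top tercile, 2 at an unadjusted p under 0.05 (11.1%, against 1.27% of all genes), with a median of -1.72, and the counts came from few cells. In both mice 4 were lower and 1 higher, against 20.7% and 27.5% of all genes. The median was -1.96 in Mouse_116, where the 2 plates gave -4.12 and 1.21, 0 in Mouse_25, and -0.19 over both mice with each cell weighted equally. Mki67 and Top2a, markers of dividing cells, stood at 197 and 142 normalized CPM in the bottom tercile of Mouse_116, where they were counted in 2 and 4 of 18 cells, and at 31.9 and 1.74 in its top tercile, where 6 and 2 cells had counts. In Mouse_25 no sum of either exceeded 0.236 CPM. Pcna, a replication factor, differed by -1.64 ± 0.68 (p = 0.052). Ribosomal protein genes had a median of 0.01 over 77 genes, none at an unadjusted p under 0.05, and among them Rpl13 differed by 0.34 ± 0.19 and Rpl10 by 0.45 ± 0.27.

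Of the genes lower in the top tercile of both mice, those with the smallest p outside the lists were, besides the mitochondrial ribosomal RNA mt-Rnr1 described above, Adal, an adenosine deaminase-like enzyme, Eif3g, a translation initiation factor, Pheta1, Zkscan3, a zinc finger repressor of autophagy genes, and Mob4 and Mob1b, kinase adaptors of the MOB family. Zkscan3 was lower at each step from the bottom to the top tercile in both mice and differed by -1.68 ± 0.41 (p = 0.0061), and by -1.02 (p = 0.051) without the 2 wells. Eif3g had 195, 97.4 and 76.6 CPM in Mouse_25 and 110.2, 54.0 and 51.3 in Mouse_116 and a difference of -1.22 ± 0.29 (p = 0.0056). Mob4 and Mob1b differed by -1.68 ± 0.42 (p = 0.0065) and -1.49 ± 0.39 (p = 0.0083). Pheta1 was counted in 1 cell of the bottom tercile of Mouse_25, and the bottom sum of Adal in Mouse_25 was 168 CPM with and 2.92 CPM without the 2 wells.

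Ranked cell by cell, few genes followed the transgene closely. Over the 4704 genes counted in at least 50% of the cells of each mouse, the largest positive correlation with transgene CPM that held in both mice was 0.39 and the largest negative one -0.37, given as Spearman's rho by the smaller of the values within the 2 mice, whose cells share the heart and the total in both measures. The 5 most positive genes were Prrc2c (0.52 over 20 cells of Mouse_25 and 0.39 over 56 cells of Mouse_116), Ctnnb1 (0.38 and 0.42), Rab7 (0.64 and 0.37), Gm15427 (0.45 and 0.35) and Rpl10a-ps1 (0.49 and 0.35). Rab7, the small GTPase of late endosomes and lysosomes, had 78.7, 139 and 189 normalized CPM in Mouse_25 and 89.1, 149 and 162 in Mouse_116 and a difference of 1.07 ± 0.27 (p = 0.0068; 0.67 without the 2 wells). The last of the 5 is named as a pseudogene of a ribosomal protein, so its reads may belong to the parent gene.

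The 5 most negative genes were Ttn (-0.37 in Mouse_25 and -0.42 in Mouse_116), Bod1l (-0.37 and -0.35), the ATP synthase subunit Atp5k (-0.29 and -0.29), Gm4045 (-0.30 and -0.29) and the coactivator gene Cited4 (-0.30 and -0.29). Endogenous Bag3 had 0.26 and 0.07. The mitochondrially encoded share had -0.37 and -0.24, and the total count of a cell 0.44 and -0.04, so that in Mouse_25 deeper cells tended to rank higher. With the 2 wells left out, over 18 cells of Mouse_25, Prrc2c had 0.36, Ctnnb1 0.54, Rab7 0.52, Gm15427 0.27 and Rpl10a-ps1 0.36, and 3 of these 5 were still among the 5 highest in both mice, led by Ctnnb1 with 0.42 as the smaller value. On the negative side Ttn had -0.50, Bod1l -0.51, Atp5k -0.39, Gm4045 -0.44 and Cited4 -0.43, and 4 of the 5 were still among the 5 lowest, led by Ttn with -0.42. Bag3 then had 0.16, the mitochondrially encoded share -0.16 and the total count 0.42 in Mouse_25.

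**Figure D5:**
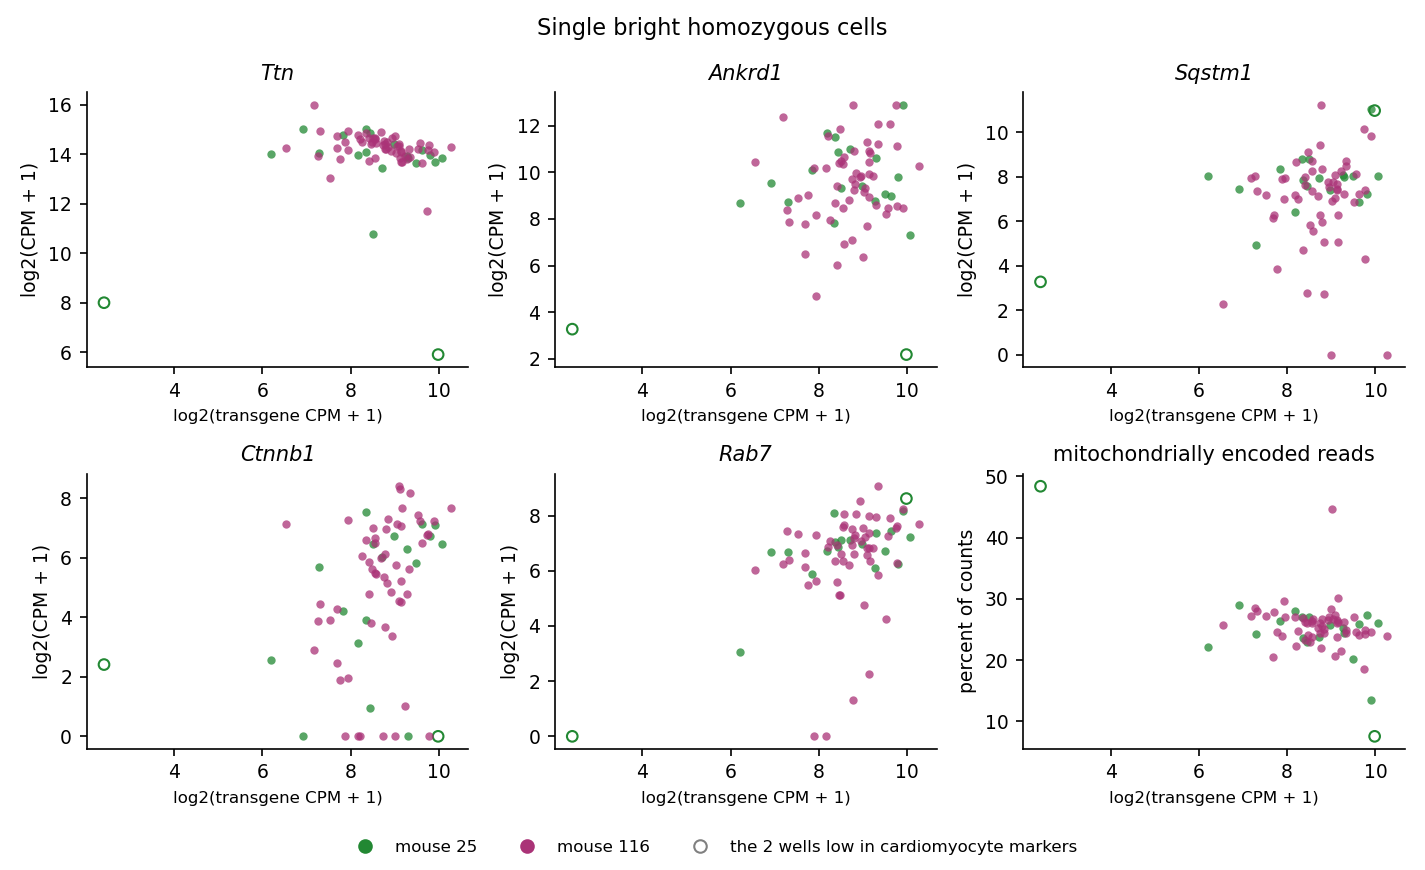
Single bright homozygous cells, with transgene level on the x axis as log2 of CPM + 1 and, on the y axes, log2 of CPM + 1 of 5 genes or the mitochondrially encoded percent of counts; green is Mouse_25, purple Mouse_116, and open circles are the 2 wells low in CM markers. Ttn slopes down (rho -0.37 and -0.42), Ctnnb1 and Rab7 slope up, and Ankrd1 and Sqstm1 spread widely at every transgene level.

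Markers of other cell types moved with single wells. The 8 fibroblast markers summed to 811, 37.7 and 7574 CPM in the bottom, middle and top tercile of Mouse_25 and to 223, 28.7 and 78.9 in Mouse_116, and all 8 had counts in every sum but the top of Mouse_116, where Pdgfra was at 0. With all wells the list's median difference was 1.22, and without the 2 wells it was -1.67, with 3 genes lower at an unadjusted p under 0.05 (against 1.68% of all genes). Col3a1 and Gsn had 98.3% and 91.9% of their top-tercile counts of Mouse_25 in well C8, and Pdgfra 99.8%. The 8 CM markers summed to 75378, 72179 and 62035 CPM in Mouse_25 and 70520.1, 74162 and 64664 in Mouse_116, lowest in the top tercile of both; in Mouse_25 without the 2 wells they summed to 79262, 71219.5 and 72227. The part of cell identity in the lower sarcomere levels was not tested beyond these removals.

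The 8 endothelial markers summed to 7.17, 366 and 79.6 CPM in Mouse_25 and 201, 95.5 and 241 in Mouse_116, with Cdh5, Kdr, Flt1 and Esam at 0 in the bottom tercile of Mouse_25; of these markers Kdr (2.96 ± 1.72), Fabp4 (1.34 ± 1.52) and Esam (1.95 ± 2.27) had the smallest p, none under 0.05. The 8 mural markers summed to 1006, 1047 and 352 CPM and 1769, 1746 and 1422 CPM. Most of this was Acta2, described above, and Myh11 was at 0 in every tercile but the bottom of Mouse_116, while the pericyte gene Rgs5 had 0.707, 44.9 and 18.9 CPM in Mouse_25 and 1.18, 12.7 and 42.9 in Mouse_116 and differed by 4.97 ± 1.12 (p = 0.004) and Kcnj8 was counted in 3 cells of the top tercile of Mouse_116. Immune markers summed to at most 3.28 CPM, with Ptprc at 0 in all sums and Cd68 as the single gene tested (-1.05 ± 2.43), and erythroid markers to at most 14.8 CPM. Of 6 atrial markers, which the removal of the atria should leave out, Sln and Bmp10 were at 0 in every sum, Nppa is described above, and Myl4 (-0.61 ± 1.94) and Stard10 (3.42 ± 3.59) did not differ at that p.

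Set against the cells of the 2 control mice, the top and the bottom tercile each gave no gene past the threshold in edgeR. The top tercile had 0 of 10850 genes called and 635 at an unadjusted p under 0.05 (5.85%), and DESeq2 called 131 (1.21%). Without the 2 wells edgeR called 1 of 10838 genes (0.00923%), the predicted gene Gm13394, named after its value was seen. The bottom tercile had 0 of 10269 and 347 (3.38%), and DESeq2 called 62 (0.604%); with a block for the name in the titles (GL-9122b for Mouse_25 and Mouse_26, GL9989 for Mouse_116 and Mouse_73; what the names stand for is not stated), edgeR called 23 for the bottom and 0 for the top tercile. These 2 comparisons share their control cells, so their values are only set side by side.

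Ankrd1 had 200.3 and 239.9 normalized CPM in control Mouse_26 and Mouse_73, under all 6 sums of bright cells, and its log2 difference from controls was 2.82 ± 0.31 in the top and 2.12 ± 0.36 in the bottom tercile. Tnni1 stood at 13.5 and 3.3 CPM in controls, with 5.46 ± 0.82 in the top and 4.53 ± 0.75 in the bottom tercile. Ppargc1a, the main coactivator of mitochondrial biogenesis, was at 946 and 1056 CPM in controls, above all 6 sums, with -2.41 ± 0.32 in the top and -1.92 ± 0.34 in the bottom tercile. For these 3 genes both terciles thus lay on the same side of the controls, and none passed the test. Ttn stood at 20022 and 36146 CPM in the 2 control mice, with -1.09 ± 0.31 in the top and -0.34 ± 0.38 in the bottom tercile, and the control mice thus lay far apart. Sqstm1 stood at 173 and 318 CPM in controls, with 0.99 ± 0.56 in the top and -0.76 ± 0.45 in the bottom tercile, and Ctnnb1 at 50.2 and 3.6, with 1.79 ± 1.08 in the top and 0.05 ± 1.17 in the bottom tercile. With well B1 and the 2 wells removed, the difference of the top tercile from controls was -0.03 ± 0.43 for Sqstm1 and 2.44 ± 0.49 for Ankrd1. For Tnni1 the difference of the top from the bottom tercile was then -0.36, so a higher level in the top tercile was no longer seen. Animal and strain background cannot be told apart from genotype here, while Mouse_25 and Mouse_26 share the name GL-9122b in their titles.

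Dim homozygous cells of the same 2 mice were divided into terciles in the same way, to ask whether the top against bottom change was particular to bright cells. The 18 dim cells of Mouse_25 held at most 84.5 CPM of transgene and the 48 of Mouse_116 at most 724 CPM. Among dim cells 0 of 11679 genes passed and 198 had an unadjusted p under 0.05 (1.7%). The difference between the bright and the dim change passed for 0 of 13353 genes in edgeR, with 372 at an unadjusted p under 0.05 (2.79%), and for 30 in DESeq2 (0.225%). The 3 genes with the smallest p were Sqstm1, with a difference of 2.22 ± 0.47 (p = 0.00086), Txndc5, with 4.16 ± 0.91 (p = 0.0011), and Cog3, with 8.89 ± 1.95 (p = 0.0011), and well C8 held 96.0% and 88.4% of the counts of the last 2 in the top tercile of Mouse_25. Sqstm1 differed by 1.65 ± 0.36 between the terciles of bright cells and by -0.57 ± 0.26 (p = 0.067) between those of dim cells. For Ttn the dim cells gave -0.30 ± 0.17 (p = 0.13) and the difference was -0.44 ± 0.20 (p = 0.053), and for Ankrd1 they gave -0.46 ± 0.41 and 1.19 ± 0.52 (p = 0.046). Removal of the 2 wells moved the difference to 1.72 ± 0.38 (p = 0.00092) for Sqstm1, 2.36 ± 1.58 (p = 0.163) for Txndc5, 7.53 ± 1.89 (p = 0.0022) for Cog3, -0.33 ± 0.21 (p = 0.144) for Ttn and 1.35 ± 0.49 (p = 0.018) for Ankrd1. Removal of well B1 as well moved it to 1.30 ± 0.37 (p = 0.0046) for Sqstm1, 1.82 ± 2.15 (p = 0.417) for Txndc5, 7.53 ± 1.96 (p = 0.0028) for Cog3, -0.27 ± 0.22 (p = 0.255) for Ttn and 0.69 ± 0.61 (p = 0.277) for Ankrd1, and edgeR called 0 genes in both cases.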

How the data were processed

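Single CMs were sequenced after SMART-seq2, and the authors aligned the reads with STAR, by its default settings, to a mouse genome extended with human BAG3 and eGFP and deposited whole-number counts per gene and cell; the genome build and the strand setting are not given in the sources used here. Cells with little cDNA had been left out by the authors before library preparation. The table held 55538 features. A sample's mouse, well and a name (GL-9122b, or GL9989 with a suffix, called the plate here although the labels do not say what it stands for) were read from its title, and "sample title" in the selection rule was taken as the mouse. Counts of the cells of each tercile were summed per mouse, which gave 6 sums. Genes were filtered by filterByExpr, scaled by TMM and tested with edgeR 4.0.16 (R 4.3.3), quasi-likelihood test, Benjamini-Hochberg threshold 0.05, with terms for mouse and tercile; the transgene features were kept out of the test. Sums of one mouse come from the same animal, so the block pairs them by design. The p-values of that fit rest on how far the tercile differences vary between the 2 mice, with the spread estimate shared across genes. The spread between animals is taken up by the mouse term. The comparisons with controls had 2 sums a group. DESeq2 1.42.0, limma 3.58.1 (mean log2(CPM + 1) per cell), a linear trend, other rankings, cells thinned to 200000 counts (72 cells) and other filters were alternatives. Within-mouse differences used a prior count of 2. SE is the log2 difference divided by the square root of its F. Scripts were tested on simulated data. The cells, gene lists and tests were chosen with earlier results of these data known. Named genes were the BAG family, the 12 genes a direction with the smallest p of those with one direction in both mice and 5 normalized CPM or more, 3 genes a list, 10 by correlation and 3 by the interaction; 1 gene that the rule names is not reported here. After the table was opened, mitochondrial symbols were respelled as the table has them and 1 symbol that it does not list was dropped. Counting intervals are not given, since reads without molecular identifiers are not independent.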

Additional observations from a re-analysis of the deposited data

Results flagged for a closer look

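Single cells that stood apart from the others of their tercile were looked for in Mouse_25, whose terciles are small enough for Dixon's test. The checks took 6 measures of each of 3 terciles, 18 in all, and 7 values stood out. Chance would single out about 1 in 20 where values are normally distributed. Summed fibroblast markers, mostly low with rare large values, are not, so this rate does not hold for them. Well E1 of the bottom tercile had 1117 detected genes against 5479 to 6587 in the other 5 cells, 48.4% mitochondrially encoded counts against 22.1 to 29.0%, and 1907 CPM of CM markers against 69006 to 91479.7. Well C8 of the top tercile had 205 CPM of CM markers against 68406 to 76816, and 52217 CPM of fibroblast markers against 0 to 1919. Well G8 of the bottom tercile had 4453 CPM of fibroblast markers against 0 to 74.7, and at 69006 CPM its CM markers were the lowest after those of well E1. Well F3 of the middle tercile had 44921 CPM of CM markers against 68567 to 89063 in the other 7. Causes were not tested.

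Heterozygous cells of Mouse_72, which enter no comparison, also carried transgene counts. The 24 cells labelled het_bright had a median of 25.6 CPM (0 to 952) and the 25 labelled het_dim a median of 381 CPM (42.4 to 1180.3), against a median of 0 in both control mice. The order of the labels and that of the RNA levels were thus opposite in this 1 animal, whereas they were the same in both homozygous mice; no test is possible with 1 mouse.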

How the results depend on the processing

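The count of 0 genes between top and bottom tercile was the same in 19 of 21 other settings with a test; DESeq2 called 67 and the linear trend 1. With no replicate block for the mouse, 0 genes passed and 558 had an unadjusted p under 0.05, in place of 402, and the pairing by mouse changed no call. That second count was 205 with the 4 top and bottom sums alone, 1097 in DESeq2 and 924 with each cell weighted equally. Against controls, the top tercile had 131 calls in DESeq2, 288 with no filter, 1 without the 2 wells, and 1 without well B1 as well (Gm13394 both times), and 0 to 255 when 1 mouse was left out, and the bottom tercile had 62, 57, 0, 0 and 0 to 68, with 23 when the name shared in the titles was the replicate block (0 for the top tercile). Leaving out Mouse_116 gave 255 and 68, Mouse_25 15 and 48, Mouse_26 0 and 0, and Mouse_73 0 and 2; 1 sum was then assumed to vary like the others. The interaction had 30 calls in DESeq2 and 0 in the others. Leaving out a mouse in the top against bottom comparison leaves no test, only values. The median of all genes was 0.11, 0.19 when scaled by library size and 0.29 with each cell weighted equally.

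Of 111 genes, 72 kept the sign of their log2 fold change in every setting, the values of single mice included. For the others, the values of opposite sign were as follows, and the cause was not tested. Ranking by BAG-eGFP alone gave Bag1 (0.093), Bag3 (0.14), C1qtnf1 (-4.84), Champ1 (-1.51), Cog3 (-1.84), Col1a1 (-4.86), Col1a2 (-4.43), Col3a1 (-2.70), Ctsl (-1.97), Eno3 (0.069), Gm14005 (-9.64), Gm15427 (-0.13), Gpx3 (-0.53), Gsn (-2.78), Hspa5 (-0.34), Hspb8 (0.38), Il1rl2 (-3.21), Klf2 (-3.02), Myl4 (0.26), Parp16 (-5.88), Pdgfra (-1.30), Prrc2c (-0.20), Psmd6 (-0.38), Rpl10 (-0.0068), Rpl10a-ps1 (-0.020), Suclg1 (0.0052), Tnni3 (0.045), Txndc5 (-2.30). Each cell weighted equally gave Bag1 (0.27), Bag3 (0.77), Cd68 (0.025), Dnaja2 (0.65), Dnajb2 (0.58), Hspb8 (0.58), Lpl (0.40), Mki67 (0.33), Myl4 (0.21). Thinned cells gave Bag2 (-0.20), Bag3 (0.52), Camk2d (-0.17), Fabp4 (-0.081). Removal of wells C8, E1 and B1 gave Bag2 (-0.034), Col1a1 (-6.07), Col1a2 (-3.72), Col3a1 (-2.81), Ctsl (-0.024), Eno3 (0.026), Gsn (-2.15), Klf2 (-1.60), Mdh1 (0.0085), Pdgfra (-6.84), Tnni1 (-0.36). Scaling by library size gave Bag3 (0.070). All 80 bright cells gave Bag3 (0.029). Cells with 2000 or more genes gave Bag3 (0.010). 4 groups in place of 3 gave Bag3 (0.10), Bag4 (-2.43), Myl4 (0.28). Ranking by hBAG alone gave Bag3 (0.015), Bag4 (-2.39). Removal of wells C8 and E1 gave Bag3 (0.073), Col1a1 (-2.004), Col1a2 (-1.94), Col3a1 (-1.41), Gsn (-1.03), Hspb8 (0.00020), Klf2 (-0.50), Pdgfra (-2.74). Removal of well C8 gave Bag3 (0.013), Col1a1 (-2.13), Col1a2 (-2.04), Col3a1 (-1.56), Gsn (-1.15), Hspb8 (0.010), Klf2 (-0.61), Pdgfra (-2.79). Removal of these 2 and the shallow wells gave Bag3 (0.063), Col1a1 (-1.96), Col1a2 (-1.88), Col3a1 (-1.37), Gsn (-0.99), Klf2 (-0.45), Pdgfra (-2.67). 2 groups in place of 3 gave Bag3 (0.22), Camk2d (-0.11), Fabp4 (-0.66). Transgene CPM taken without genes named mt- gave Bag4 (-0.27). Ranking within plates gave Bag4 (-0.37). The top and bottom sums alone gave Col1a1 (-0.30). The linear trend gave Col1a1 (-0.18). Mouse_116 alone and Mouse_25 alone gave Bag3 (0.20 and -0.23), Cd68 (0.10 and -1.12), Col1a1 (-3.28 and 2.58), Col1a2 (-1.83 and 2.50), Col3a1 (-0.057 and 3.10), Gsn (-1.07 and 2.49), Hspa5 (-0.17 and 1.15), Myl4 (0.40 and -3.08), Pdgfra (-3.58 and 8.23). Depth and the number of animals limit all values: many genes had counts in a few cells of a tercile, so that their sums rest on those cells, and the spread was estimated from 2 mice.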
